A study of Arabidopsis thaliana with 6 samples.

Results

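Aquaporins are the membrane channels through which plant cells pass water and a few small uncharged solutes. The 31 genes described here belong to 4 Arabidopsis thaliana subfamilies: 5 PIP1 and 8 PIP2 genes for plasma membrane intrinsic proteins, 10 TIP genes for tonoplast intrinsic proteins, 5 NIP genes for nodulin 26-like intrinsic proteins and 3 SIP genes for small basic intrinsic proteins. They were taken by locus identifier from a fixed list, and all 31 were found among the 33557 genes of the deposited gene table. The list was chosen with earlier results of these data known. Names are written with a hyphen, so that PIP2-1 is the gene usually written with a semicolon.

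The RNA came from whole 10-day-old seedlings of ecotype Columbia (spelled Colombia in the labels) grown on quarter-strength MS medium with sucrose. The 2 genotypes were plants labelled CPL4RNAi, in which RNA interference was directed at CPL4, a phosphatase-like protein known for its action on the tail of RNA polymerase II, with 3 libraries, and wild type plants labelled Col, also with 3 libraries. Both groups shared the ecotype, age and medium, and no other allele or treatment is labelled. The study asked how the 2 genotypes differ in their transcripts. The authors deposited 1 pooled FPKM value per gene and genotype (fragments scaled to transcript length and to the number of mapped fragments), so no spread between the 3 libraries can be given for any gene. The depth of the libraries behind these values is unknown. A gene was called when its q in the authors' deposited table was under 0.05.

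CPL4 itself (AT5G58003), at chromosome 5, 23479804 to 23482048 of build TAIR10, had 8.84 FPKM in the labelled knockdown and 4.92 FPKM in wild type, a log2 ratio of 0.85 with q = 6.39e-04 in the authors' deposited table. The targeted gene therefore went against its label. Whether reads of the interference construct were counted for this gene was not tested. The group is called the labelled knockdown below, and each direction rests on that label.

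In plants, PIP proteins sit mainly in the plasma membrane and TIP proteins mainly in the tonoplast, the membrane around the central vacuole. Water crosses a cell through both membranes, and the tonoplast channels let the vacuole buffer the volume of the thin cytoplasm around it. Several TIP proteins also pass urea, ammonia or hydrogen peroxide, NIP proteins carry metalloids such as boric acid and arsenite, and SIP proteins were located in the endoplasmic reticulum. PIP1 proteins often reach the plasma membrane together with PIP2 proteins, as mixed tetramers.

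The pore of each channel is lined by a pair of short loops that carry the box asparagine-proline-alanine. The following 30-base stretches of coding sequence, read 5′ to 3′ from the RefSeq annotation of TAIR10.1, show that box in 1 abundant channel of each membrane and its variants in NIP and SIP genes. The capitals mark the 9 bases of the box.

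TIP1-2, first box: ggtggccacgttAACCCTGCCgttaccttc

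PIP2-1, first box: ggtggtcacattAACCCAGCGgtgacattt

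NIP5-1, first box: ggggctcacctaAACCCATCActgaccata

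NIP1-1, second box: agtgcgtcgatgAATCCAGGAagaagttta

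SIP1-2, first box: ggtgctagcttcAATCCTTGTggaaacgca

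SIP2-1, first box: ggcgggctttatAATCCTTTGaccgctttg

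The coding sequences of all 13 PIP genes, all 10 TIP genes and NIP2-1 held the standard box in both places. In NIP5-1 the last residue was serine in the first box and valine in the second. It was glycine in the second box of NIP1-1 and NIP1-2, and valine in the second box of NIP6-1. In the SIP genes the first box ended in threonine (SIP1-1), cysteine (SIP1-2) or leucine (SIP2-1), and the second box was standard. The genes with a changed box were all of low or moderate level, between 1.07 and 54.5 FPKM in the labelled knockdown and between 2.08 and 51.6 FPKM in wild type.

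Of the tested tonoplast genes, 5 of 7 were called lower in the labelled knockdown, while 9 of the 13 plasma membrane genes were not called. Of the 31 aquaporins, 27 carried a test, 3 were called higher, 7 were called lower and 17 were not called. Over all 18038 tested genes, 12.7% were called higher and 9.78% lower. The 7 lower genes were TIP1-1, TIP1-2, TIP2-1, TIP2-2, TIP2-3, PIP1-5 and NIP1-1, and the 3 higher ones were PIP1-1, PIP2-3 and PIP2-5. At an unadjusted p under 0.05, 6 aquaporins were higher and 9 lower in the authors' deposited table, beside 18.0% higher and 15.7% lower among all tested genes. The median log2 ratio of the 27 tested aquaporins was 0.05, beside 0.00 over all tested genes. The differences were small: the 10 called aquaporins had a median change of 1.43-fold in either direction, and 1 of the 10 reached 2-fold. Among all 4060 called genes the median was 1.60-fold, and 1035 reached 2-fold.

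**Figure D1:**
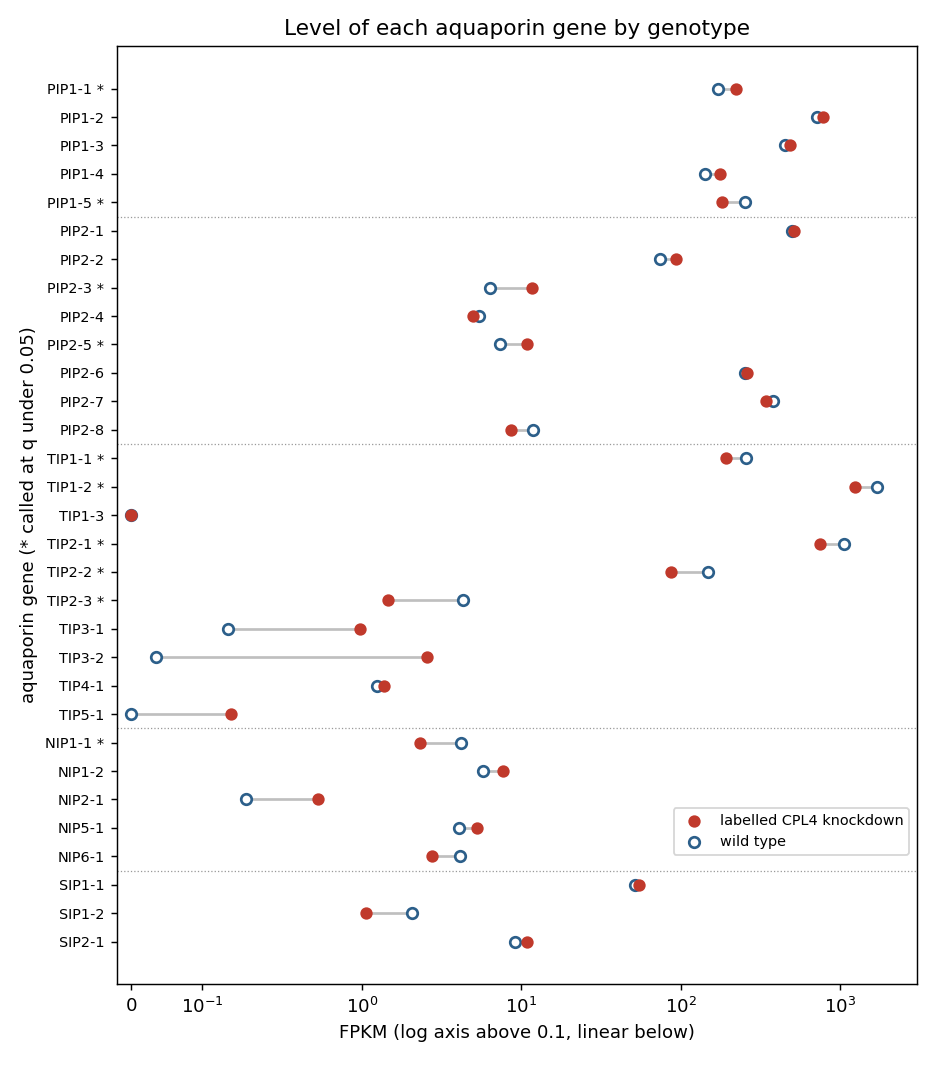
FPKM of each of the 31 aquaporin genes in the labelled knockdown (filled red) and in wild type (open blue), on an axis that is logarithmic above 0.1 and linear below, with 1 pooled value per genotype and no error bars. TIP1-1, TIP1-2, TIP2-1, TIP2-2 and TIP2-3 have the red point left of the blue one, and TIP1-3 is at 0 in both genotypes.

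Among the tonoplast genes, TIP1-2 (AT3G26520, chromosome 3, 9722443 to 9723815, TAIR10) had the highest level of all aquaporins in both genotypes. It stood at 1235.9 FPKM in the labelled knockdown and 1699.7 FPKM in wild type, a log2 ratio of -0.46, with q = 0.0117 in the authors' deposited table. By its mean of 1467.8 FPKM it was number 91 of all genes. TIP2-1 (AT3G16240), the delta-TIP that also passes ammonia, stood at 749.3 FPKM in the labelled knockdown and 1054.8 FPKM in wild type. Its log2 ratio was -0.49, with q = 0.00448 in the authors' deposited table. The deposited locus of TIP2-1, chromosome 3 from 5505404 to 5508414, also spans NDF4 (AT3G16250), a subunit of the chloroplast NDH complex on the opposite strand, at 28.8 FPKM in the labelled knockdown and 39.9 FPKM in wild type. Whether reads kept their strand is not stated in the sources used, so reads of the overlap cannot be told apart, but NDF4 was far below TIP2-1 in both genotypes.

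TIP1-1 (AT2G36830, chromosome 2, 15445425 to 15446574) encodes gamma-TIP, a classic marker of the large lytic vacuole. It stood at 191.5 FPKM in the labelled knockdown and 255.1 FPKM in wild type, a log2 ratio of -0.41 with q = 0.0112 in the authors' deposited table. TIP2-2 (AT4G17340, chromosome 4, 9699253 to 9700410) stood at 86.9 FPKM in the labelled knockdown and 148.7 FPKM in wild type. This was 1.71-fold lower, with q = 6.39e-04 in the authors' deposited table. TIP2-3 (AT5G47450, chromosome 5, 19248249 to 19249504), whose product passes ammonia when made in yeast, had the greatest fold change of the called aquaporins. It stood at 1.47 FPKM in the labelled knockdown and 4.29 FPKM in wild type, 2.93-fold lower with q = 0.00117 in the authors' deposited table. These 5 genes span levels from 4.29 to 1699.7 FPKM in wild type, and each was lower by between 1.33-fold and 2.93-fold.

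TIP2-2 and TIP2-3 are the most alike of the 5, with 81.8% identical coding bases, and TIP1-1 and TIP1-2 shared 81.7%. No 100-base window of any of these 4 transcripts occurred in the RefSeq mRNA of another gene. Reads of that length with no mismatch thus have 1 origin among those mRNAs. Other RNA classes and the rest of the genome were not searched. For TIP2-1, 21 windows (1.93% of its windows) also lay in the transcript of its antisense neighbour NDF4.

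The remaining 5 tonoplast genes were at 2.55 FPKM or less in both genotypes, and none was called. TIP4-1 (AT2G25810), a root channel, stood at 1.38 FPKM in the labelled knockdown and 1.24 FPKM in wild type and was not called. TIP1-3 (AT4G01470), known from pollen, was listed at 0 in both genotypes, and TIP5-1 (AT3G47440), also known from pollen, was listed at 0.151 FPKM in the labelled knockdown and at 0 in wild type. The deposited locus of TIP5-1 also spans NOA1 (AT3G47450), at 14.5 FPKM in the labelled knockdown and 16.1 FPKM in wild type. Of 5 other pollen marker genes, 2 were listed at 0 in both genotypes, and all 5 summed to 2.10 FPKM in the labelled knockdown and 2.16 FPKM in wild type.

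TIP3-1 (AT1G73190) and TIP3-2 (AT1G17810) encode the alpha-TIP and beta-TIP of protein storage vacuoles in seeds. TIP3-1 stood at 0.982 FPKM in the labelled knockdown and 0.146 FPKM in wild type and carried no test. Of its 100-base windows, 191 (17.7%) also lay in the transcript of its antisense neighbour AT1G73200, so its value is uncertain. TIP3-2 stood at 2.55 FPKM in the labelled knockdown and 0.0354 FPKM in wild type, and with q = 0.430 in the authors' deposited table it was not called. Its log2 ratio of 6.17 rests on a wild type value close to 0. Its deposited locus also spans AT1G17820, at 5.30 FPKM in the labelled knockdown and 5.61 FPKM in wild type, above TIP3-2 in both genotypes. Transcripts of 11 other seed marker genes summed to 17.4 FPKM in the labelled knockdown and 2.24 FPKM in wild type, and of the 3 that were tested, 2 were called higher. These were CRA1 (9.65 FPKM in the labelled knockdown and 0.278 FPKM in wild type) and CRC (2.77 FPKM in the labelled knockdown and 0.289 FPKM in wild type), both genes of cruciferins. The shares called over all tested genes were 12.7% higher and 9.78% lower. In bulk seedlings, a difference in the number of cells of a type and a difference in RNA per cell cannot be told apart.

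Taking the 10 tonoplast genes together, their summed level was 2270.1 FPKM in the labelled knockdown and 3164.0 FPKM in wild type, a difference of -28.3%. The 13 plasma membrane genes summed to 3080.4 FPKM in the labelled knockdown and 2964.9 FPKM in wild type, a difference of 3.90%. The tonoplast sum was 0.737 times the plasma membrane sum in the labelled knockdown, against 1.07 times in wild type. As a share of the summed aquaporin level, TIP genes made up 41.8% in the labelled knockdown and 50.9% in wild type, while PIP genes made up 56.7% in the labelled knockdown and 47.7% in wild type. TIP1-2 alone made up 22.7% in the labelled knockdown and 27.4% in wild type. All 31 genes summed to 5435.5 FPKM in the labelled knockdown and 6210.1 FPKM in wild type, a difference of -12.5%, so the shares are of unequal totals.

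**Figure D2:**
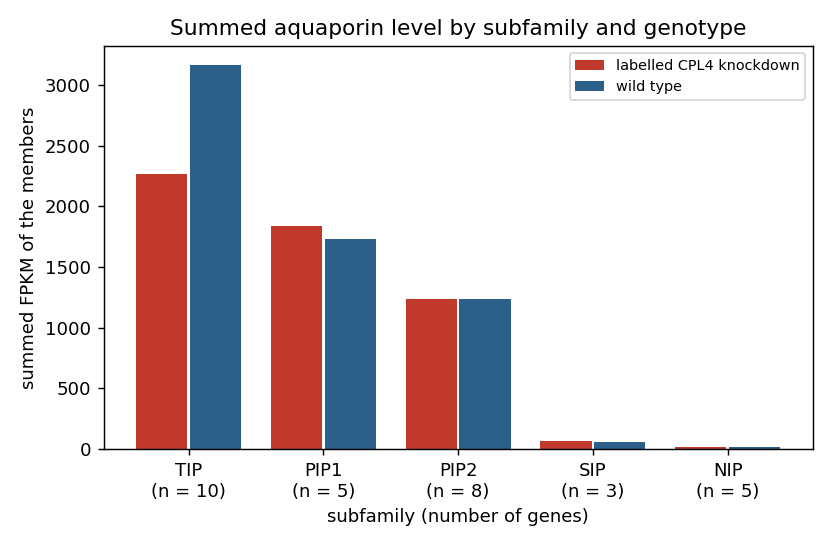
Summed FPKM of the members of each aquaporin subfamily, on a linear axis from 0, with the labelled knockdown in red and wild type in blue and 1 pooled value per genotype. The TIP bars stand at 2270.1 FPKM in the labelled knockdown and 3164.0 FPKM in wild type, and the PIP2 bars differ by 0.311%.

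Gene by gene, 5 of the 7 tested tonoplast genes were called lower and 0 higher, and 1 of the 13 plasma membrane genes was called lower and 3 higher. These counts, and those of the marker lists below, stand beside 9.78% lower and 12.7% higher among all tested genes. At an unadjusted p under 0.05 in the authors' deposited table, too, 5 tonoplast genes were lower and 0 higher, beside 15.7% lower and 18.0% higher among all tested genes. Of the 13 plasma membrane genes, 2 were lower and 5 higher at that threshold. The median log2 ratio was -0.46 over the tested tonoplast genes and 0.10 over the plasma membrane genes. With a pseudocount of 0.1 and the untested genes included, it was -0.21 over all 10 tonoplast genes and 0.10 over the plasma membrane genes. By subgroup, all 5 tested genes of TIP1 and TIP2 were called lower, while the 2 tested genes of TIP3 to TIP5 were not called. The latter, TIP3-2 and TIP4-1, had means of only 1.29 and 1.31 FPKM. The calls therefore cannot show a difference between the subgroups. With 1 pooled value per genotype, the difference between the membranes could not be tested. Leaf and root markers were mixed. The 7 leaf markers summed to 26705.6 FPKM in the labelled knockdown and 33086.3 FPKM in wild type, with 1 called higher, 3 lower and a median log2 ratio of -0.35. The 10 root markers summed to 639.9 FPKM in the labelled knockdown and 630.4 FPKM in wild type, with 2 called higher, 2 lower and a median of 0.07. The part of these markers in the tonoplast result was not tested.

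The PIP1 genes encode plasma membrane channels that conduct little water when made alone in frog oocytes. Their summed level was 1840.9 FPKM in the labelled knockdown and 1729.2 FPKM in wild type. PIP1-2 (AT2G45960), a main channel of roots and rosettes, stood at 779.5 FPKM in the labelled knockdown and 712.6 FPKM in wild type and was not called, with q = 0.541 in the authors' deposited table. PIP1-3 (AT1G01620) stood at 482.7 FPKM in the labelled knockdown and 450.3 FPKM in wild type and was not called either. The most abundant PIP1 genes thus differed by at most 1.09-fold.

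PIP1-5 (AT4G23400, chromosome 4, 12220743 to 12222371) was the sole plasma membrane gene called lower. It stood at 181.3 FPKM in the labelled knockdown and 252.9 FPKM in wild type, a log2 ratio of -0.48 with q = 0.00117 in the authors' deposited table. PIP1-1 (AT3G61430, chromosome 3, 22733309 to 22735335) went the other way, at 220.8 FPKM in the labelled knockdown and 172.0 FPKM in wild type. Its log2 ratio was 0.36, with q = 0.0354 in the authors' deposited table. PIP1-4 (AT4G00430) was close to PIP1-1 in size, at 176.7 FPKM in the labelled knockdown and 141.5 FPKM in wild type, but its q of 0.0711 in the authors' deposited table missed the threshold. In the labelled knockdown PIP1-1 was above PIP1-5, and in wild type PIP1-5 was above PIP1-1. No 100-base window was shared between a PIP1 transcript and the RefSeq mRNA of another gene.

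The PIP2 genes encode the more active water channels of the plasma membrane. Their sum was 1239.5 FPKM in the labelled knockdown and 1235.7 FPKM in wild type. PIP2-1 (AT3G53420), a channel of roots and leaves that is also known from guard cells, stood at 509.1 FPKM in the labelled knockdown and 500.7 FPKM in wild type, with q = 0.925 in the authors' deposited table. PIP2-7 (AT4G35100) stood at 340.0 FPKM in the labelled knockdown and 377.5 FPKM in wild type. PIP2-6 (AT2G39010) stood at 261.3 FPKM in the labelled knockdown and 252.8 FPKM in wild type. None of these 3 abundant channels was called.

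The PIP2 genes called higher were both of low level. PIP2-3 (AT2G37180, chromosome 2, 15617708 to 15619155), first described as the desiccation-induced gene RD28, stood at 11.6 FPKM in the labelled knockdown and 6.34 FPKM in wild type. This was 1.84-fold higher, with q = 6.39e-04 in the authors' deposited table. PIP2-5 (AT3G54820, chromosome 3, 20302021 to 20304010) stood at 10.8 FPKM in the labelled knockdown and 7.38 FPKM in wild type, a log2 ratio of 0.55 with q = 0.0200 in the authors' deposited table. PIP2-8 (AT2G16850), at 8.61 FPKM in the labelled knockdown and 11.8 FPKM in wild type, and PIP2-4 (AT5G60660), with a log2 ratio of -0.13 at a mean of 5.23 FPKM, were not called.

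PIP2-3 and PIP2-2 are neighbours on chromosome 2 with nearly the same coding sequence: 45 of 858 bases differ, 94.8% are identical, and the longest run with no difference is 242 bases. The stretch from coding base 403 to 492 (RefSeq, TAIR10.1, 5′ to 3′) is shown because reads across it can tell the pair apart. Its 12 differing bases are in capitals.

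PIP2-2: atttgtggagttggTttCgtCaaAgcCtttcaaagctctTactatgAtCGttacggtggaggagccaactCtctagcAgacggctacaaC

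PIP2-3: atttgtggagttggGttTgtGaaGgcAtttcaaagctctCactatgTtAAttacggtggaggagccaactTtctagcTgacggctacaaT

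Of the 100-base windows, 143 occur in both transcripts and cannot tell the pair apart, which is 12.8% of the windows of PIP2-3 and 11.5% of those of PIP2-2. PIP2-2 (AT2G37170) had the higher level, at 93.1 FPKM in the labelled knockdown and 73.8 FPKM in wild type. Its log2 ratio was 0.33, with q = 0.0511 in the authors' deposited table, so it was not called. How the authors' counting split reads of both genes is not stated either, and the value of PIP2-3, the lower of the pair, is therefore uncertain.

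The level of a gene was set against its change by splitting the family at a mean of 10 FPKM over both genotypes. The 15 highly expressed aquaporins, which hold 10 PIP genes, 4 TIP genes and SIP1-1, were all tested. Of these, 1 was called higher and 5 lower, beside 15.0% higher and 11.2% lower among all tested genes of that level. Their median log2 ratio was 0.02, which is also the median of all genes of that level. Of the 16 lowly expressed aquaporins 12 were tested, 2 were called higher and 2 lower, beside 10.9% higher and 8.63% lower among all tested genes under 10 FPKM. Their median log2 ratio was 0.20, against -0.03 for all genes of that level, and its direction turned, to -0.61, with a limit of 5 FPKM in place of 10. PIP2-3, PIP2-5 and SIP2-1 lay just under the limit, with means of 8.99, 9.07 and 9.96 FPKM, and PIP2-8 lay just over it with 10.2 FPKM.

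The membranes were also compared within each level. The 4 highly expressed tonoplast genes were all called lower and had a median log2 ratio of -0.48, while the 10 highly expressed plasma membrane genes had a median of 0.07, with 1 called higher and 1 lower. Of the 3 lowly expressed plasma membrane genes 2 were called higher, and of the 3 tested lowly expressed tonoplast genes 1 was called lower. Their median log2 ratios were 0.16 for the tonoplast genes and 0.55 for the plasma membrane genes. Absolute levels followed the abundant genes: the highly expressed aquaporins summed to 5371.1 FPKM in the labelled knockdown and 6155.6 FPKM in wild type, and the lowly expressed ones to 64.3 FPKM in the labelled knockdown and 54.5 FPKM in wild type.

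**Figure D3:**
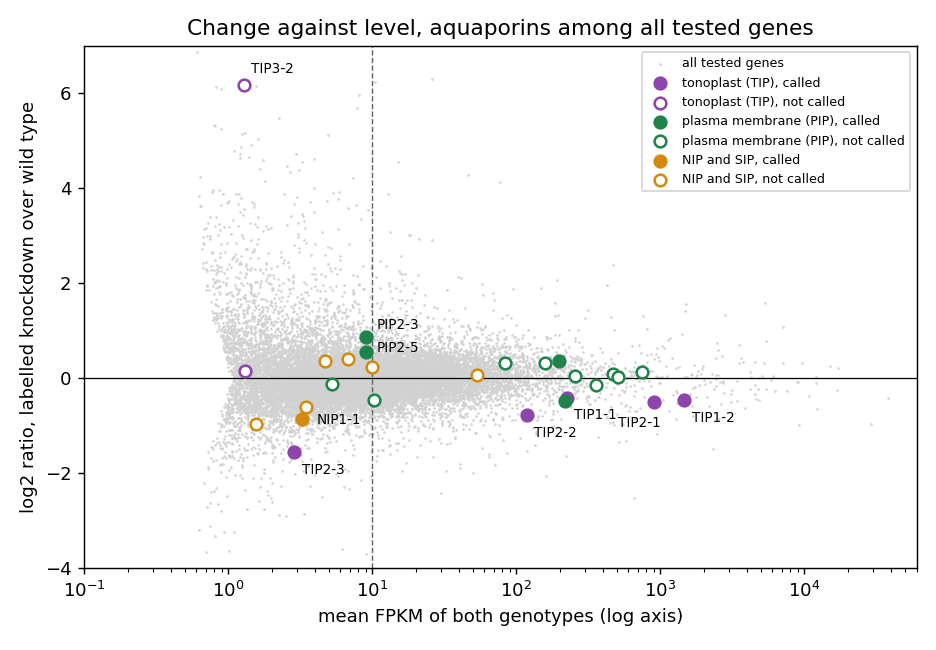
Log2 ratio of the labelled knockdown over wild type against the mean FPKM of both genotypes (log axis), for the tested aquaporins (large points, filled where called) among all tested genes (grey), with a dashed line at 10 FPKM. The 4 called TIP genes right of the line lie between -0.78 and -0.41, and 101 tested genes that fall outside the axes or have no finite ratio are not drawn.

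The rank of the members changed little at the top. TIP1-2 was first in both genotypes. TIP2-1 was the third in the labelled knockdown and the second in wild type, with PIP1-2 in the other place, and PIP2-1, PIP1-3 and PIP2-7 followed in this order in both. The spread between libraries is not available, so no neighbours in this order can be said to differ beyond it. SIP1-1 came after the 13 most abundant PIP and TIP genes in both genotypes.

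NIP genes were low throughout, with 18.6 FPKM in all in the labelled knockdown and 18.4 FPKM in wild type. NIP1-1 (AT4G19030, chromosome 4, 10421525 to 10423487), a channel known for arsenite uptake, was the only one called. It stood at 2.32 FPKM in the labelled knockdown and 4.19 FPKM in wild type, 1.81-fold lower with q = 0.0133 in the authors' deposited table. Its closest relative NIP1-2 (AT4G18910), with 84.7% identical coding bases, stood at 7.68 FPKM in the labelled knockdown and 5.79 FPKM in wild type and was not called. NIP2-1 (AT2G34390), a channel for lactic acid that is induced by low oxygen, stood at 0.536 FPKM in the labelled knockdown and 0.188 FPKM in wild type and carried no test. Its deposited locus also spans AT2G34380, at 5.14 FPKM in the labelled knockdown and 3.64 FPKM in wild type. Of its 100-base windows, 59 (4.17%) also lay in the transcript of AT2G29870, so the value of NIP2-1 is uncertain. The 4 remaining NIP genes of the genome carried no test, and all were under 0.5 FPKM in both genotypes.

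NIP5-1 (AT4G10380), which takes up boric acid in roots, stood at 5.28 FPKM in the labelled knockdown and 4.08 FPKM in wild type, with q = 0.187 in the authors' deposited table. NIP6-1 (AT1G80760), which passes boric acid toward young leaves, stood at 2.74 FPKM in the labelled knockdown and 4.16 FPKM in wild type, with q = 0.258 in the authors' deposited table. Neither boric acid channel was called. The deposited locus of NIP6-1 also spans AT1G80750, at 9.22 FPKM in the labelled knockdown and 9.41 FPKM in wild type, above NIP6-1 in both genotypes. Of the 7 borate exporters, 3 were tested. BOR2 was called higher, at 17.4 FPKM in the labelled knockdown and 9.48 FPKM in wild type, and BOR1 was called lower, at 5.67 FPKM in the labelled knockdown and 9.63 FPKM in wild type. These calls stand beside 12.7% higher and 9.78% lower among all tested genes.

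None of the 3 SIP genes was called, and at an unadjusted p under 0.05 in the authors' deposited table SIP1-2 was lower and 0 were higher. SIP1-1 (AT3G04090) stood at 54.5 FPKM in the labelled knockdown and 51.6 FPKM in wild type, and SIP2-1 (AT3G56950) at 10.8 FPKM in the labelled knockdown and 9.15 FPKM in wild type. SIP2-1 shares its deposited locus with ACSF (AT3G56940), a chlorophyll synthesis gene at 1382.9 FPKM in the labelled knockdown and 1032.2 FPKM in wild type, and 48 of its 100-base windows lie in that transcript. Without strand, reads of this much more abundant neighbour could enter the value of SIP2-1, which is therefore uncertain. SIP1-2 (AT5G18290) stood at 1.07 FPKM in the labelled knockdown and 2.08 FPKM in wild type, a log2 ratio of -0.96. Its deposited locus also spans anac088 (AT5G18300), at 0.867 FPKM in the labelled knockdown and 1.60 FPKM in wild type. The log2 ratio of anac088 was -0.88, so the value of SIP1-2 is uncertain too.

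Transcription start groups, which collect the transcripts that begin at 1 place, gave nearly the same calls. The 31 genes had 36 start groups, and 26 genes had 1 each. Of the 30 groups tested, 2 were called higher and 7 lower, beside 10.2% higher and 7.34% lower among all 20159 tested groups. The 7 lower groups belonged to the 7 genes called lower, and the 2 higher ones to PIP2-3 and PIP2-5. For the single-group genes the table repeats the gene value, so it is no second measurement.

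PIP1-1 was the called gene whose start groups were not called. Its main group held 97.7% of the gene's FPKM in the labelled knockdown and 98.4% in wild type, and stood at 215.7 FPKM in the labelled knockdown and 169.3 FPKM in wild type. Its q was 0.0632 in the authors' deposited table. In PIP2-1, PIP2-7 and SIP2-1 too, 1 group held between 97.1% and 99.8% of the gene. SIP1-2 was the exception, with 59.4% of its FPKM in 1 group in the labelled knockdown and 57.3% in wild type.

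The 150 bases before the annotated start are shown for the 5 tonoplast genes called lower. They are given in RefSeq TAIR10.1 coordinates, each read 5′ to 3′ on the gene's strand and ending next to the RefSeq start. That start lies outside the deposited TAIR10 locus in each of the 5 genes. For TIP2-2 it is base 9698940, while the deposited locus begins at 9699253. Any part of these sequences in the lower levels was not tested. Capitals mark matches to the TATA box TATANA or to ACGTG, the core of abscisic acid response elements, on either strand.

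TIP1-1, chr2:15445144-15445293, plus strand: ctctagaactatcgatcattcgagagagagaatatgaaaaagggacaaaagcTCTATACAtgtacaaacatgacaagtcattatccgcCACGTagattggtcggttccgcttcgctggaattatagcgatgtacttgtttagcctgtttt

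TIP1-2, chr3:9723905-9724054, minus strand: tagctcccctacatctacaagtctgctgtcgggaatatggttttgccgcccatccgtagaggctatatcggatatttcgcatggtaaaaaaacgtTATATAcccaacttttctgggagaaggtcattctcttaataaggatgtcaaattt

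TIP2-1, chr3:5505210-5505359, plus strand: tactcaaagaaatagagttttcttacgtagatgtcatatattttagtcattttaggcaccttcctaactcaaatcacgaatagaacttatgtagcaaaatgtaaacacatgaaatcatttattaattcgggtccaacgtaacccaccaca

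TIP2-2, chr4:9698790-9698939, plus strand: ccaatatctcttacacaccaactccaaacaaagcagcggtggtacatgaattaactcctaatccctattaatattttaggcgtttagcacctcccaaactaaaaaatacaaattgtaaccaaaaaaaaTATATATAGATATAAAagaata

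TIP2-3, chr5:19249623-19249772, minus strand: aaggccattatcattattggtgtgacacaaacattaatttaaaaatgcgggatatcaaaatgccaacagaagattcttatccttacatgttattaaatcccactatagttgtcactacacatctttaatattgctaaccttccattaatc

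Over the 250 bases before the RefSeq start, TATANA was found on either strand in 23 of the 31 aquaporins, in 6 of the 7 called lower and in 1 of the 3 called higher, beside 69.4% of 27443 protein-coding genes. ACGTG was found in 4 (TIP1-1, TIP3-1, TIP5-1 and SIP1-1), beside 22.9% of all genes. The G-box CACGTG, which contains ACGTG, was found in 0 of the 31 and in 6.49% of all genes. The evening element AAATATCT was found in 0 of the 31 and in 4.79% of all genes, and the site II element TGGGCC in PIP2-7 and TIP1-3 and in 13.7% of all genes. These are matches of letters in a short window.

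Of the other tonoplast transporters listed, 1 was called lower. The shares to set beside these lists are 12.7% called higher and 9.78% called lower among all tested genes. Of 17 subunits of the vacuolar proton pumps, all tested, 1 was called higher and 0 lower, with log2 ratios between -0.24 and 0.37. At an unadjusted p under 0.05, 2 of them were higher and 0 lower in the authors' deposited table. The called one was VHA-C4, a subunit of the proton channel of the pump, at 95.7 FPKM in the labelled knockdown and 74.0 FPKM in wild type. The sum of the 17 was 1958.8 FPKM in the labelled knockdown and 1988.3 FPKM in wild type. Of 8 other tonoplast carriers, 3 were called higher and 1 lower. The malate carrier TDT stood at 65.9 FPKM in the labelled knockdown and 40.9 FPKM in wild type, the sugar carrier TMT1 at 55.7 FPKM in the labelled knockdown and 39.3 FPKM in wild type, and the cation exchanger CAX3 at 4.00 FPKM in the labelled knockdown and 1.81 FPKM in wild type. CAX1, the calcium exchanger, was the lower one, at 69.0 FPKM in the labelled knockdown and 98.2 FPKM in wild type.

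**Figure D4:**
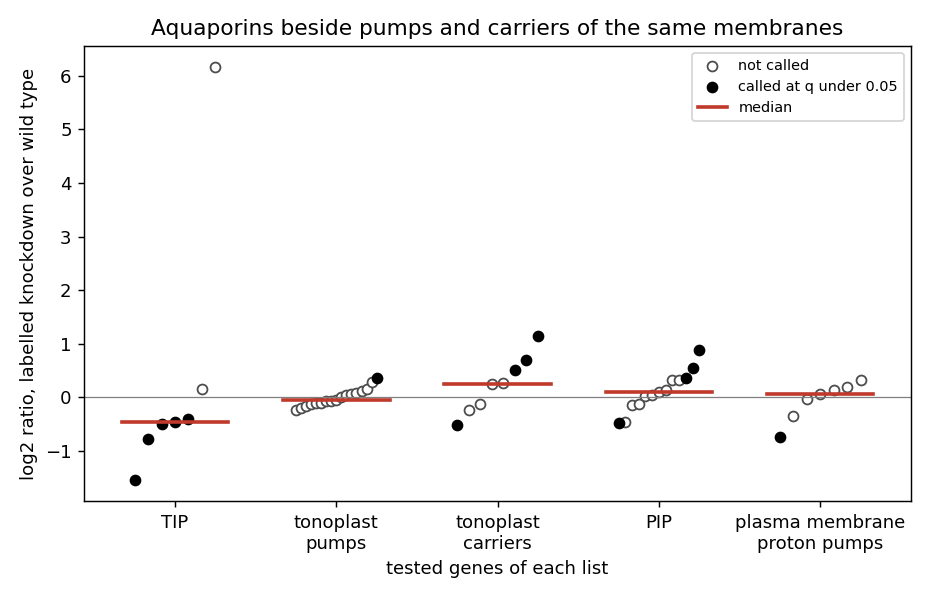
Log2 ratio of the labelled knockdown over wild type for each tested gene of 5 lists (TIP genes, tonoplast proton pumps, other tonoplast carriers, PIP genes and plasma membrane proton pumps), with called genes filled and the median as a red line. The median is -0.46 for TIP genes and -0.04 for tonoplast proton pumps, and the open point at 6.17 is TIP3-2.

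At the plasma membrane, the 11 proton pump genes (AHA) had 7 tested members, of which 0 were called higher and 1 lower. At an unadjusted p under 0.05, 1 was higher and 2 were lower in the authors' deposited table. The lower one was AHA3, at 40.6 FPKM in the labelled knockdown and 67.4 FPKM in wild type. Of 12 genes known to act on PIP proteins by trafficking, phosphorylation or breakdown, 1 was called higher and 1 lower. Both lists stand beside 12.7% called higher and 9.78% called lower among all tested genes. SYP121, a syntaxin that delivers PIP proteins to the plasma membrane, stood at 18.4 FPKM in the labelled knockdown and 14.1 FPKM in wild type. RMA1, a ubiquitin ligase that acts on PIP2-1, stood at 16.3 FPKM in the labelled knockdown and 24.4 FPKM in wild type, with q = 6.39e-04 in the authors' deposited table.

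Ammonia and urea also pass through some TIP proteins, so the plasma membrane transporters of ammonium and urea were set beside them. Of the 5 listed, all tested, 3 were called higher and 0 lower, with a median log2 ratio of 0.65. Among all tested genes, 12.7% were called higher and 9.78% lower. A link between these genes and the TIP genes was not tested. At an unadjusted p under 0.05, too, 3 were higher and 0 lower in the authors' deposited table. The ammonium transporter AMT1-2 stood at 16.7 FPKM in the labelled knockdown and 6.02 FPKM in wild type, AMT1-3 at 10.3 FPKM in the labelled knockdown and 6.59 FPKM in wild type, and the urea carrier DUR3 at 7.70 FPKM in the labelled knockdown and 3.07 FPKM in wild type.

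Genes of water shortage, to which many aquaporins respond, moved in both directions. Of 13 markers 11 were tested, 4 were called higher and 3 lower, with a median log2 ratio of -0.06. Among all tested genes, 12.7% were called higher and 9.78% lower. RD20 stood at 5.40 FPKM in the labelled knockdown and 0.685 FPKM in wild type, and the transcription factor gene HB7 at 8.56 FPKM in the labelled knockdown and 3.23 FPKM in wild type. RD29A stood at 14.4 FPKM in the labelled knockdown and 36.0 FPKM in wild type, and COR15A at 22.4 FPKM in the labelled knockdown and 38.6 FPKM in wild type. The list thus gave no single direction to set beside PIP2-3, the aquaporin first found as a desiccation gene.

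Root genes that bear on water and ion movement were also mixed. CASP1, which builds the Casparian strip, stood at 4.89 FPKM in the labelled knockdown and 8.51 FPKM in wild type, and the sodium transporter HKT1 at 0.990 FPKM in the labelled knockdown and 1.98 FPKM in wild type. PHO1, a phosphate exporter of the root stele, stood at 19.0 FPKM in the labelled knockdown and 12.4 FPKM in wild type, and SHR, a regulator of endodermis formation, at 8.84 FPKM in the labelled knockdown and 6.55 FPKM in wild type. These 4 are named because they were called, and 3 of the 7 tested root markers were not called. Among leaf markers, 3 were called lower and 1 higher. The shares beside both marker lists are 9.78% lower and 12.7% higher among all tested genes. PSAF stood at 1231.4 FPKM in the labelled knockdown and 2125.9 FPKM in wild type. The light-harvesting gene CAB1 stood at 9631.1 FPKM in the labelled knockdown and 15003.3 FPKM in wild type. LHCA4 was lower too, at 3030.3 FPKM in the labelled knockdown and 4655.6 FPKM in wild type. The higher one was RBCS3B, a small subunit of Rubisco, at 3105.9 FPKM in the labelled knockdown and 2244.3 FPKM in wild type.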

How the data were processed

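RNA was measured in 3 libraries of the labelled CPL4 knockdown and 3 of wild type. Ribosomal RNA was removed from total RNA and cDNA was made by SMARTer PCR, per the labels' protocols, and read from both ends for 100 bp. The submitters' processing notes name Cuffdiff 2.2.1.3, TopHat2 2.0.14 and build TAIR10, beside Trim Galore 0.4.0 and CASAVA 1.8.2. Not given in the sources used here are options, strand marking and how reads with several origins were counted. PCR copying and short transcripts can shift FPKM.

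The authors deposited FPKM per gene and per start group, 1 value per genotype over its libraries, with a p-value and a q-value each. The lowest p is 5.00e-05, at q = 6.39e-04. Of 33557 genes, 18038 were tested, 15512 were not, and 7 exceeded the depth Cuffdiff handles. The call is their own test at q under 0.05. No other test is possible with 1 value for each genotype. Whether the 3 libraries of a group came from separate cultures is known only as far as the design text calls them biological triplicates.

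Log2 ratios, sums, shares and medians over tested genes were computed from the deposited FPKM with no pseudocount, in Python 3.11.15 with numpy 2.4.6, pandas 2.3.3, matplotlib 3.10.9 and Biopython 1.88, and the scripts were tested on simulated data. Deposited coordinates are TAIR10, counted from 1. Sequences, identities and 100-base windows come from RefSeq's TAIR10.1, where all 31 members and all 110 genes of the 12 lists were matched by locus. A deposited coverage table of snRNA regions was not used here.

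The members and lists were chosen with earlier results of these data known. All members could be named, and of each list at most 4 called genes, those with the greatest log2 ratios in either direction and at least 1 FPKM in 1 genotype. Alternatives changed the q threshold, the fold minimum, the pseudocount, the level limit, the centring and the members used.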

Additional observations from a re-analysis of the deposited data

How the results depend on the processing

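No paired analysis was possible because each genotype has 1 pooled value per gene, and leaving out a library was not possible for the same reason. The 3 aquaporins called higher became 1 at q under 0.01, 5 at q under 0.1, 6 at an unadjusted p under 0.05, 1 with a minimum of 1.5-fold and 1 without members whose protein is at least 95% identical to another's. The 7 called lower became 4 at q under 0.01 and 3 with a minimum of 1.5-fold. Of start groups, 1 was higher and 4 were lower at q under 0.01, and 6 were higher at an unadjusted p under 0.05. The median log2 ratio of the tonoplast genes was -0.21 with a pseudocount of 0.1 over all 10, where untested genes enter, and -0.48 from the sums, and that of the plasma membrane genes 0.06 from the sums. For highly expressed aquaporins the median was 0.04 with a limit of 50 FPKM, 0.06 with a limit of 5 FPKM and 0.03 recentred on all genes. For lowly expressed ones it was 0.16 with a limit of 50 FPKM, 0.15 with a pseudocount of 1 and -0.61 with a limit of 5 FPKM, where PIP2-3, PIP2-5 and other genes between both limits leave the class. The direction of that median therefore depends on the limit. In all, 21 of 40 alternatives left a count within 1.5-fold of the main one or a median unchanged as printed. Of the others, 1 reversed a direction, and some moved a median only slightly. Without members whose locus overlaps another gene, an alternative chosen after seeing the data, 3 were higher and 6 lower. Depth is unknown, so nothing can be said of how it limits the low TIP, NIP and SIP values.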
